A study of Mus musculus with 4 samples.

Results

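Imprinted genes are expressed mainly from one parental copy, and the promoters of 33 listed imprinted mouse genes were examined for dimethylation of histone H3 lysine 9 (H3K9me2). Of the 33 genes, 30 had a row among the 26354 promoters of the deposited table, and Rian, Mirg and Kcnq1ot1 were not analysed here. The members were taken by gene symbol, from a list drawn up with earlier results of these data known. From general knowledge of mouse imprinting, 9 of the 30 are expressed from the maternal allele (H19, Igf2r, Zim1, Grb10, Meg3, Phlda2, Ascl2, Tssc4 and Ube3a) and 20 from the paternal allele. Gnas, whose start sites differ in the allele expressed, was kept apart from both classes.

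The chromatin came from aortas of C57Bl/6J males, used without culture, of which the medial layer was kept after the fat, adventitia and endothelium had been removed, and no treatment or genetic change was labelled. H3K9me2 chromatin immunoprecipitation (ChIP) and sequencing was done in 2 experiments, v102 and v134, each with 1 ChIP library and 1 input library of DNA that was not immunoprecipitated. The number of animals behind each library was not given in the sources used here. Because the strain is inbred and the table counts all reads together, signal from the maternal and the paternal allele cannot be told apart: a window with the mark on both copies at a moderate level and a window with the mark on 1 copy at a high level give the same count.

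The values are reads within 1 kb on either side of a transcription start site. Summed over the table, the ChIP libraries held 162233 (v102) and 229605 (v134) reads and the input libraries 619100 and 1084349, of which the 30 imprinted promoters took 339, 379, 630 and 1136. Depth per promoter was low: the imprinted promoters had a median of 9.5 and 10.5 reads in the ChIP libraries and of 21 and 36.5 reads in the input libraries, compared with medians of 4 and 5 in ChIP and of 20 and 37 in input over all rows. Among promoters of cell type markers, those of smooth muscle had a median log2 ratio of ChIP over input of -1.36, with 1 of 8 above input (Smtn) and 3 below at an adjusted p under 0.05 by edgeR. Of all rows, 18.6% were above input and 17.0% below, and with the experiment as a block 1 smooth muscle promoter (Myh11) stayed below. Of 4 leukocyte marker promoters, 2 were above input (Ptprc and Itgam), with and without the block. Of 5 endothelial, 5 adipocyte and 5 fibroblast marker promoters, 0 were above input by edgeR (1, 0 and 0 at an unadjusted p under 0.05). By DESeq2 0 were, also at an unadjusted p under 0.05. Below input by edgeR were 1 (Pecam1), 0 and 2 (Pdgfra and Col1a1), and 0 in each set with the block. Both inputs held 20 reads or more at 4 endothelial, 3 adipocyte and 3 fibroblast promoters. When edgeR was limited to such rows, 2, 0 and 1 of these were above input, beside 17.5% of the 13993 rows. A histone mark at a promoter is not an RNA level, so these values do not establish which cells were present, and a part of other cell types in the results was not tested.

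H3K9me2 is a repressive histone mark deposited mainly by the enzymes EHMT2 and EHMT1. Imprinted genes lie mostly in clusters that share a control region whose DNA is methylated on only one parental copy. At several of these control regions the methylated copy is packed with repressive histone marks, and the zinc finger protein ZFP57 recognises the methylated hexamer TGCCGC there. In some clusters a long non-coding RNA from the same region silences neighbours on one copy. The genes act largely in fetal growth, placenta, metabolism and brain, and several are silent in most adult tissues.

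The sequences below are RefSeq promoters, from 250 bases before to 50 bases after the start, in the build GRCm38.p6, with each CpG in capitals because CpG is where DNA methylation, the primary imprint, is placed. Mkrn3 (chr7:62420104-62420403, minus strand), Magel2 (chr7:62376729-62377028, plus strand) and Peg3 (chr7:6730370-6730669, minus strand) are shown because their windows had the highest H3K9me2 enrichment, Dlk1 (chr12:109452573-109452872, plus strand) because it had the lowest, and Igf2r (chr17:12769657-12769956, minus strand) and Airn (chr17:12741061-12741360, plus strand) because they are an oppositely imprinted pair in which enrichment differed.

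Mkrn3: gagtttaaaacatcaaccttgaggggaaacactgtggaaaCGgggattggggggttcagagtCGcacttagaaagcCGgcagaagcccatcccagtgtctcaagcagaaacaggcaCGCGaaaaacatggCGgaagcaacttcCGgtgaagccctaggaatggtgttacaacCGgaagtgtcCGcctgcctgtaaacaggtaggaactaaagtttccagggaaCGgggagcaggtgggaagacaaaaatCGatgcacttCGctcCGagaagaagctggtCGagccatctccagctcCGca
Magel2: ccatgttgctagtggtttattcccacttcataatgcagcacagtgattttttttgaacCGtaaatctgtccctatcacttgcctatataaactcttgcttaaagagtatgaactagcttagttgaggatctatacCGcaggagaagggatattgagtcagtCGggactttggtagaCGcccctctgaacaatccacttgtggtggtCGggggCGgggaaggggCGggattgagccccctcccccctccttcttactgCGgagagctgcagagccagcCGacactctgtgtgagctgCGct
Peg3: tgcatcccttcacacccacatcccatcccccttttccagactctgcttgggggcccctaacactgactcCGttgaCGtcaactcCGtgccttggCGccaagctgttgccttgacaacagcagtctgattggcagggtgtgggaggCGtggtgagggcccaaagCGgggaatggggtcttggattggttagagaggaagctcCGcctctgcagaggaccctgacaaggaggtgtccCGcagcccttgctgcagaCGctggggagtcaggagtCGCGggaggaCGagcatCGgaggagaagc
Igf2r: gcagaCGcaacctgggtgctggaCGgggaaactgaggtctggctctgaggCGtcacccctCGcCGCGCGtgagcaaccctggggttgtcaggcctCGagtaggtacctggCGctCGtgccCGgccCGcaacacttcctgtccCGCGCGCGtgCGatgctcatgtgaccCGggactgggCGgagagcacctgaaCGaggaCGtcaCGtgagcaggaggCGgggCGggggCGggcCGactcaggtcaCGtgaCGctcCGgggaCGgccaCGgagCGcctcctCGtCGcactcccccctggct
Airn: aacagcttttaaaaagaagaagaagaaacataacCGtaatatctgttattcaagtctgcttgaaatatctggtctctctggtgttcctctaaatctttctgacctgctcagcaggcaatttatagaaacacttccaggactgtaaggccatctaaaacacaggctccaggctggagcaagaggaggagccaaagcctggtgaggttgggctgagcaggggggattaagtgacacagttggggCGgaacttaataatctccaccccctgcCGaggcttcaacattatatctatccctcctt
Dlk1: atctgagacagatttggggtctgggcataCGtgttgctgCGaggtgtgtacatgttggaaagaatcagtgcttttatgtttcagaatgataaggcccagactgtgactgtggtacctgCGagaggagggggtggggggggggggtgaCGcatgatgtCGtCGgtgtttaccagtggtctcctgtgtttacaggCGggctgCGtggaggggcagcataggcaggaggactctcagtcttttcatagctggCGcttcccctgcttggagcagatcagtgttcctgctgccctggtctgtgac

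The CpG density of these stretches varied widely. Igf2r holds 34 CpG in 300 bases, Mkrn3 15, Peg3 13, Magel2 10, Dlk1 9 and Airn 3, beside a median of 7 over the 32851 RefSeq promoters of the reference. In these 300 bases Magel2 and Dlk1, near the top and at the bottom of the enrichment, differ by a single CpG. Reads were counted over a wider window, 1 kb on either side of the start. That window holds 125 CpG at Igf2r, 75 at Mkrn3, 92 at Peg3, 64 at Magel2, 108 at Dlk1 and 75 at Airn. The median over rows with a known place is 56. RefSeq entries matched 24 of the 30 imprinted genes (37 entries, median 16 CpG), and Peg10, Sgce, H19, Nespas, Rtl1 and Impact had none. TGCCGC, searched on both strands, is absent from the 6 printed stretches and occurs in 10 of the 37 entries and in 11.6% of all RefSeq promoters.

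The enrichment of each promoter was expressed as the log2 of ChIP over input reads within an experiment, with 1 read added to each count and each library scaled by its total over the table, and averaged over the 2 experiments (mean ± SD, n = 2). A value of 0 means the same share of the ChIP library as of the input library. The median over the 30 imprinted promoters was 0.76 (1.06 in v102 and 0.58 in v134, SD 0.34), compared with -0.31 over all rows (-0.11 and -0.38). The median imprinted promoter stood at the 77.1 percentile of the table, and 23 of the 30 lay above the table's median. In both experiments at once, 11 of 30 (36.7%) were in the top quartile, beside 17.7% of all rows. Pooled over members, the ratio (all ChIP reads over all input reads, as deposited, unscaled) was 0.407, compared with 0.230 over the table.

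**Figure D1:**
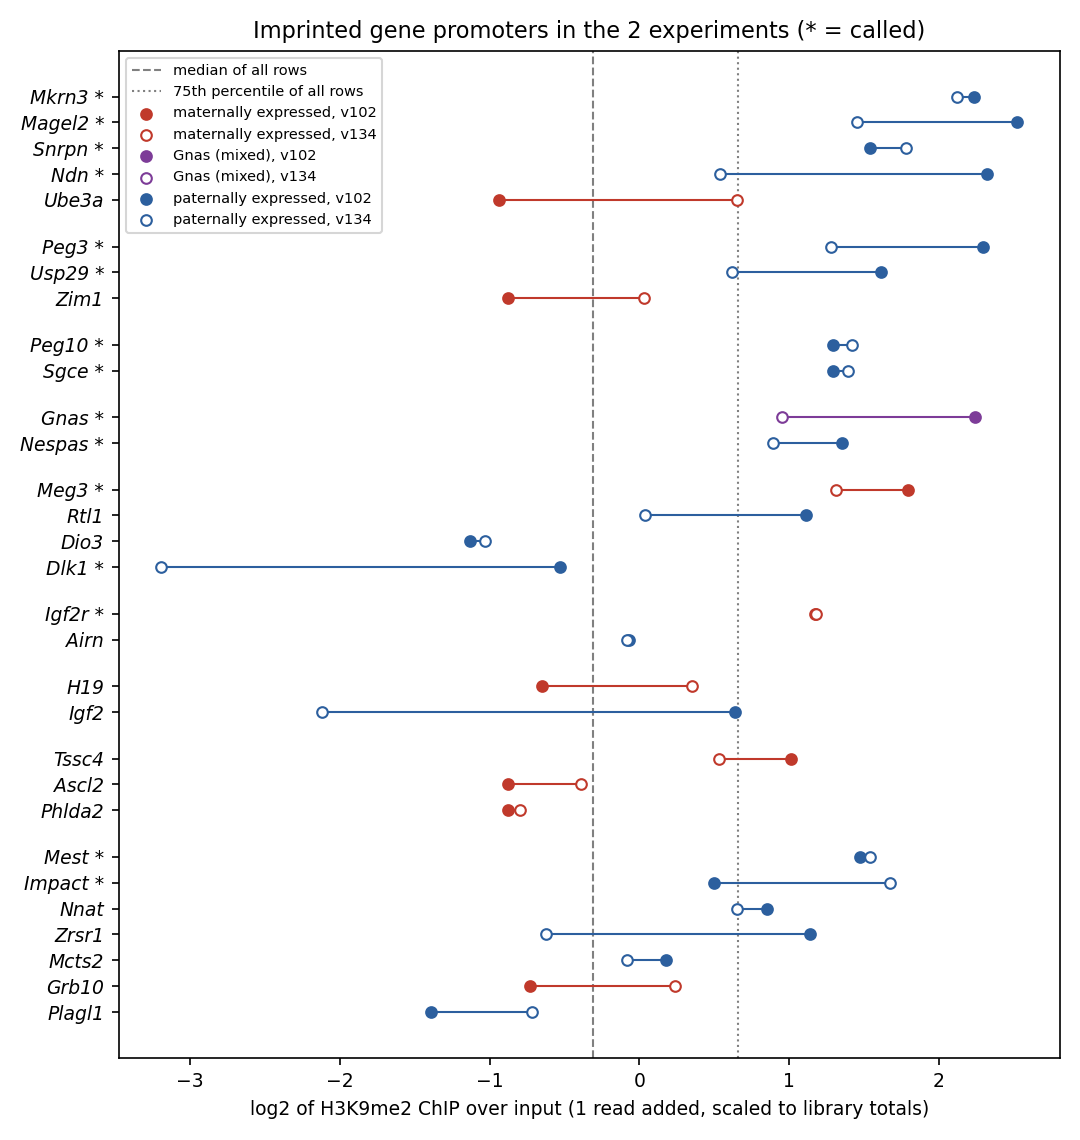
Log2 ratio of H3K9me2 ChIP over input reads (x axis, 1 read added, scaled to library totals) for each of the 30 imprinted promoters, grouped by cluster. Filled circles are experiment v102 and open circles v134, red marks maternally expressed genes, blue paternally expressed genes and purple Gnas, the dashed line is the median of all rows at -0.31 and the dotted line their 75th percentile at 0.66, and an asterisk marks the 15 promoters past the test's threshold; Mkrn3 and Magel2 lie farthest right and Dlk1 farthest left.

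ChIP and input counts were compared over all 26354 rows with edgeR's quasi-likelihood test and Benjamini-Hochberg adjustment. At an adjusted p under 0.05, 14 of the 30 imprinted promoters (46.7%) were above input, beside 18.6% of all rows, and 1 (3.33%) was below input, beside 17.0%. The labels tie each ChIP to its own input, and with the experiment as a block the counts were 12 (15.8% of all rows) and 0 (8.30%; 1 at an unadjusted p under 0.05). By DESeq2, 8 were above (11.6% of all rows) and 0 below (0.102%; also 0 at an unadjusted p under 0.05). DESeq2 gave no adjusted p to 17883 of the 26354 rows, several imprinted promoters among them. Such rows could not be called and still count in the 11.6% and 0.102%, so these shares are a limited comparison. These tests rest on 2 libraries against 2, which the labels describe as independent ChIP experiments.

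Of the 15 calls, 7 held in every alternative that gave them an adjusted p, namely Mkrn3, Magel2, Peg3, Snrpn, Gnas, Peg10 and Sgce. In the fits without 1 library, an arm is left with a single library, which is assumed to vary like the pair of the other arm, so holding in them is a limited check. The other 8 were lost in at least 1. Ndn was lost without the v102 ChIP library (adjusted p = 0.359 by edgeR), and Usp29 without the v102 ChIP (0.305) and without either input (0.063 and 0.174). Impact was lost without the v134 ChIP (0.517) and the v134 input (0.0655). Mest and Nespas were lost without the v134 ChIP (0.173 and 0.058), the v102 input (0.154 and 0.125) and the v134 input (0.0978 and 0.0838). Igf2r was lost without the v102 ChIP (0.146) or either input (0.0973 and 0.408), and Meg3 without either input (0.188 for both). Dlk1 was lost without the v134 ChIP (0.161) or either input (0.0792 and 0.486). By DESeq2, Igf2r, Impact, Mest, Nespas and Usp29 were lost (adjusted p from 0.0623 to 0.156), and Meg3 and Dlk1 had no adjusted p.

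The imprinted cluster on chromosome 7 around Snrpn held the highest levels. This is the mouse counterpart of the region deleted in Prader-Willi and Angelman syndromes, and its paternally expressed genes are best known from neurons. Mkrn3, a ring finger protein that restrains the onset of puberty, starts at position 62420139 on the minus strand. It had 26 (v102) and 33 (v134) ChIP reads over 21 and 36 input reads, so that summed ChIP and input reads were nearly equal although the ChIP libraries were smaller. Its ratio of summed reads was 1.04 (Wilson 95% interval 0.721 to 1.49, counting error only), the log2 ratio was 2.17 ± 0.08 and the fitted log2 fold change was 2.31 ± 0.36 (SE; adjusted p = 1.16e-08, edgeR).

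Magel2, a regulator of endosomal protein recycling, starts at 62377010 on the plus strand. Its window had 32 and 21 ChIP reads over 21 and 37 input reads, a ratio of 0.914 (0.631 to 1.32) and a log2 ratio of 1.98 ± 0.75 (adjusted p = 1.81e-07, edgeR). Ndn, which encodes necdin, a growth suppressor of the same MAGE family, had 33 and 11 ChIP reads over 25 and 38 input reads, a ratio of 0.698 (0.476 to 1.02) and a log2 ratio of 1.43 ± 1.26 (adjusted p = 4.37e-05, edgeR). Ndn was the least even of these between experiments, high in v102 at 2.32 and only 0.54 in v134. Snrpn, which encodes a splicing protein of brain, had 15 and 23 ChIP reads over 20 and 32 input reads, a ratio of 0.731 (0.482 to 1.11) and a log2 ratio of 1.66 ± 0.17 (adjusted p = 1.07e-04, edgeR).

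The maternally expressed gene of the cluster, Ube3a, a ubiquitin ligase imprinted in neurons and expressed from both copies in most other cells, had 2 and 11 ChIP reads over 21 and 35 input reads, a ratio of 0.232 (0.128 to 0.421). Its log2 ratio was -0.94 in v102 and 0.65 in v134, on either side of the table's median, and it did not pass the test (adjusted p = 0.848, edgeR). Snrpn exceeded Ube3a by 2.48 in v102 and by 1.13 in v134 on the log2 scale (1.80 ± 0.96, n = 2, no test). The direction was the same in both experiments.

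The rows that lie between these genes in the table, which follows start sites along the chromosome, were high as well. Between Ube3a and Ndn, whose starts are 3118 kb apart, there were 31 rows of other genes, mostly small nucleolar RNAs, the Mir344 family and clone-named transcripts. Of these, 30 were above input (27 with the experiment as a block), beside 18.6% of all rows. Their median log2 ratio was 1.70 (range 0.76 to 2.76). Snurf, which shares its transcript with Snrpn, had 12 and 23 ChIP reads over 15 and 37 input reads.

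The high stretch went on past Mkrn3. Peg12, a paternally expressed gene with a start 44.4 kb farther, had 36 and 27 ChIP reads over 27 and 41 input reads (ratio 0.926). At Chrna7, a nicotinic receptor gene 792 kb beyond Mkrn3, the counts were 4 and 2 over 20 and 46 (ratio 0.0909). On the other side, Atp10a had 5 and 5 over 20 and 53 (ratio 0.137). The windows inside are poor in G and C: at those that could be placed GC content had a median of 39.1%, while all placed rows had 50.9%, and once the table-wide trend with GC content was removed their median percentile was 70.2.

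**Figure D2:**
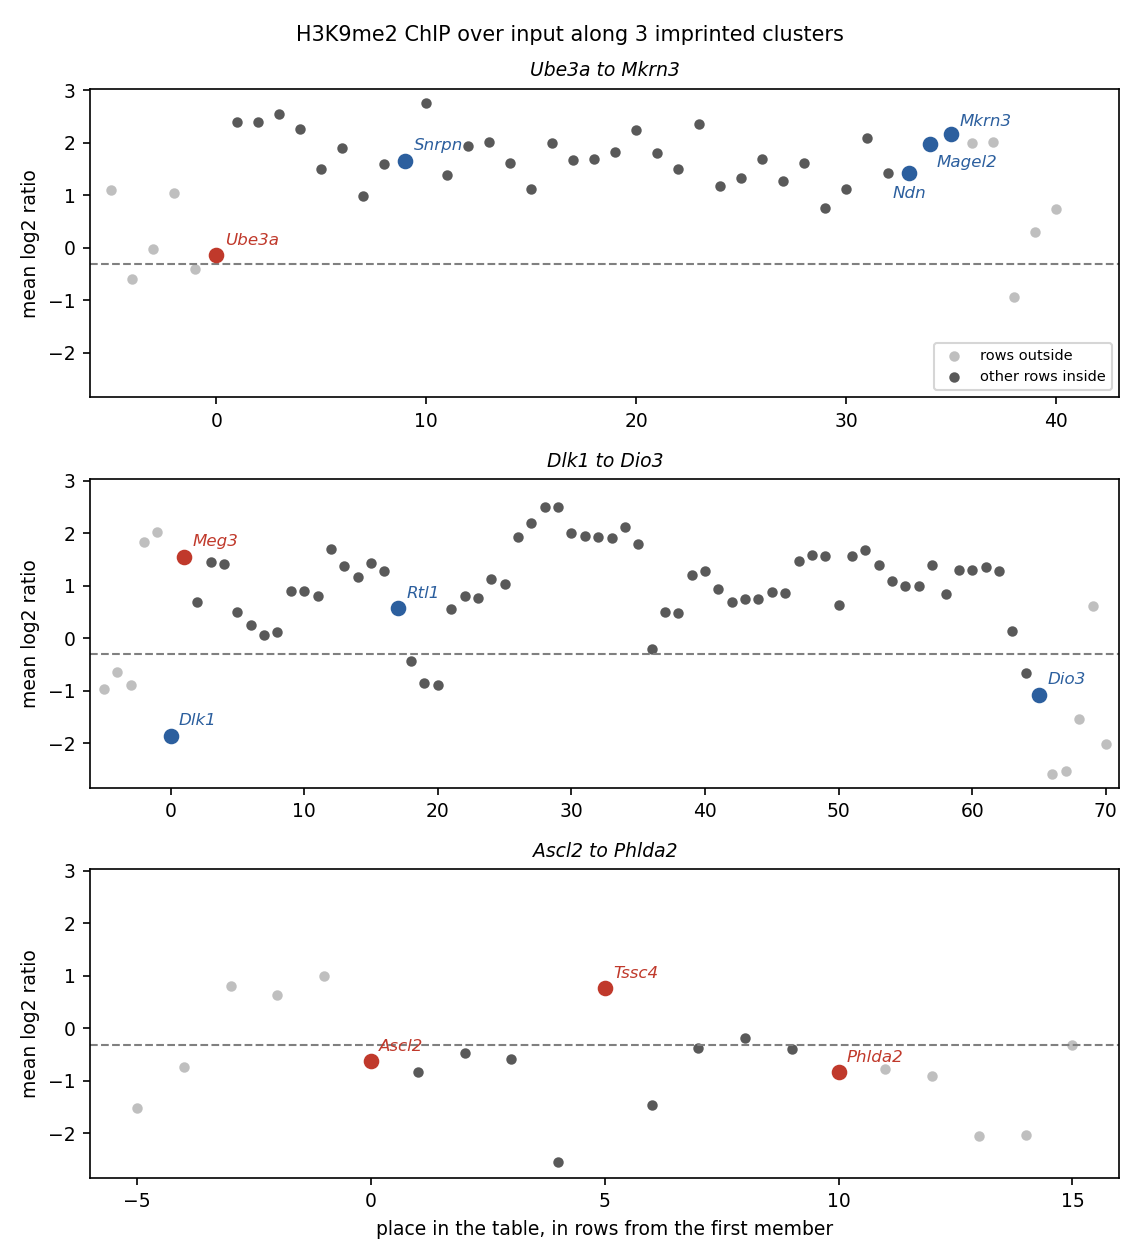
Mean log2 ratio of H3K9me2 ChIP over input reads (y axis) for consecutive rows of the table (x axis, rows counted from the first member) along 3 imprinted clusters, with 5 rows on each side. Coloured points are members (red maternally, blue paternally expressed), dark grey points other rows inside the cluster, light grey points rows outside and the dashed line the median of all rows; the rows from after Ube3a to Mkrn3 lie between 0.76 and 2.76, those between Dlk1 and Dio3 are mostly above the line, and the rows between Ascl2 and Phlda2 lie on both sides of the line.

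The Peg3 cluster, also on chromosome 7, is named for a zinc finger gene of fetal growth and maternal behaviour whose first exon carries the control region. Peg3, with its start at 6730431, had 22 and 19 ChIP reads over 17 and 38 input reads, a ratio of 0.745 (0.499 to 1.11), a log2 ratio of 1.78 ± 0.71 and a log2 fold change of 1.87 ± 0.39 (adjusted p = 3.21e-05, edgeR). Zim1, the maternally expressed zinc finger gene 34 kb away, had 1 and 7 ChIP reads over 13 and 36 input reads, a ratio of 0.163 (0.0786 to 0.339; adjusted p = 0.696, edgeR). Peg3 exceeded Zim1 by 3.16 in v102 and 1.25 in v134 on the log2 scale (SD 1.35, n = 2, no test).

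Usp29, a paternally expressed ubiquitin protease, had 19 and 11 ChIP reads over 24 and 36 input reads, a ratio of 0.50 (0.324 to 0.772; adjusted p = 0.0110, edgeR). Its place in the table, after Mir3099, puts its window at a start inside the gene and not at the promoter it shares with Peg3. The 2 other rows between Peg3 and Usp29 were above input too. The 5 rows on the Zim1 side, 4 of them olfactory receptor genes, were all above input with a median log2 ratio of 2.72, and of the 5 rows beyond Usp29 0 were, by edgeR or DESeq2 and also at an unadjusted p under 0.05.

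Peg10, a domesticated retrotransposon needed for the placenta, and Sgce, which encodes epsilon-sarcoglycan, are both paternally expressed and start 99 bases apart on opposite strands of chromosome 6 (4747306 and 4747207). Their windows share nearly all reads: Peg10 had 15 and 25 ChIP reads over 24 and 45 input reads and Sgce 15 and 25 over 24 and 46. They are therefore 1 measurement, with a log2 ratio of 1.35 ± 0.09 at Peg10 (adjusted p = 0.00107, edgeR), and with overlapping windows counted once 13 members were above input.

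In the Gnas cluster on chromosome 2, the Gnas row falls between Mir298 and Nespas in the table. That places its window at the start of the Nesp transcript (174284320), which encodes a neuroendocrine secretory protein and is expressed from the maternal copy, and not at the start of the stimulatory G protein subunit. Gnas had 20 and 15 ChIP reads over 16 and 38 input reads, a ratio of 0.648 (0.425 to 0.989) and a log2 ratio of 1.60 ± 0.91 (adjusted p = 4.33e-04, edgeR). Nespas, the paternally expressed antisense RNA, had 15 and 19 over 23 and 50, a ratio of 0.466 (0.311 to 0.698; adjusted p = 0.0129, edgeR).

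The Dlk1-Dio3 cluster on chromosome 12 held promoters called in either direction. Dlk1, a membrane protein of the Notch ligand type that is high in fetal tissues, had 1 and 0 ChIP reads over 10 and 42 input reads, a ratio of 0.0192 (0.00335 to 0.110). It was the only imprinted promoter below input (log2 fold change -3.29 ± 1.08; adjusted p = 0.0108, edgeR), and the call was lost with the experiment as a block (adjusted p = 0.0575). Meg3, the maternally expressed long non-coding RNA that starts 88.2 kb on, at 109541001, had 9 and 10 ChIP reads over 10 and 20 input reads, a ratio of 0.633 (0.359 to 1.12) and a log2 ratio of 1.55 ± 0.34 (adjusted p = 0.0132, edgeR; 0.0586 with the block). Meg3 lay above Dlk1 in both experiments, Dlk1 minus Meg3 being -2.32 in v102 and -4.49 in v134 on the log2 scale.

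Rtl1, a retrotransposon-derived gene of the placental vessels, had 12 and 14 ChIP reads over 22 and 68 input reads (log2 ratio 0.57 ± 0.76; adjusted p = 0.308, edgeR). Dio3, which inactivates thyroid hormone, had 2 and 2 over 24 and 28 (log2 ratio -1.08 ± 0.07; adjusted p = 0.119, edgeR). Between Dlk1 and Dio3, 826 kb apart, lay 62 rows of other genes, most of them microRNAs processed from the long maternal transcript that begins at Meg3, and 35 of them were above input (28 with the block, 19 by DESeq2), beside 18.6%, 15.8% and 11.6% of all rows. None of these rows was below input, with 0 by either tool, also at an unadjusted p under 0.05. A run of 9 rows from Mir882 to Mir329 was above input throughout, with a median log2 ratio of 2.00. AF357341, the row before that run, was above input too (log2 ratio 1.92). Many of the 62 rows start less than 2 kb from the next, so their windows share reads. Counts of these rows are therefore not counts of separate measurements. In the run, the starts from Mir379 to Mir329 lie 256 to 261 kb from that of Dlk1. Mir379, the highest row of the cluster, had 59 and 60 ChIP reads over 31 and 63 input reads (ratio 1.27), and its window overlaps that of Mir411, 1.11 kb away. Beyond Dio3, 4 of the next 5 rows were below input, beside 17.0% of all rows, and 2 with the block (Ppp2r5c and Dync1h1), beside 8.30%. The median log2 ratio of the 5 rows was -2.01. Rows inside with a known place had a median GC content of 49.8% and stood at a median percentile of 91.8 with the GC trend removed.

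At Igf2r and Airn on chromosome 17, as at Meg3 and Dlk1, the maternally expressed gene had the higher value. Igf2r, the receptor that clears insulin-like growth factor 2, had 12 and 10 ChIP reads over 21 and 22 input reads, a ratio of 0.512 (0.308 to 0.851) and a log2 ratio of 1.17 in v102 and 1.18 in v134 (adjusted p = 0.0278, edgeR; 0.0706 with the block). Airn, the paternally expressed antisense RNA that silences Igf2r, starts 28.4 kb away in an Igf2r intron and had 3 and 7 ChIP reads over 15 and 39 input reads, a ratio of 0.185 (0.0955 to 0.359; adjusted p = 0.852, edgeR). Airn minus Igf2r was -1.24 in v102 and -1.26 in v134 on the log2 scale (-1.25 ± 0.01, n = 2, no test). Counting error at 3 to 12 reads is far larger than that spread, as the intervals of the 2 ratios, which overlap, show.

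Igf2, the fetal growth factor, and H19, the maternally expressed non-coding RNA beside it on chromosome 7, showed no order. H19 had 3 and 9 ChIP reads over 23 and 36 input reads (ratio 0.203), and Igf2 had 8 and 1 over 21 and 40 (ratio 0.148). Igf2 minus H19 was 1.30 in v102 and -2.47 in v134 on the log2 scale, opposite in the 2 experiments. Igf2 was also below input when the v102 ChIP was left out (adjusted p = 0.0295, edgeR), and not otherwise. The H19 window overlaps that of Mir675, a microRNA inside H19, which had 5 and 6 over 26 and 26.

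In the Kcnq1 cluster, next to Igf2 on chromosome 7, 0 of the 3 imprinted promoters were above input by edgeR (1, Tssc4, at an unadjusted p under 0.05). By DESeq2 0 were, also at an unadjusted p under 0.05, and Ascl2 and Phlda2 had no adjusted p. Ascl2, a transcription factor of the placenta, had 3 and 4 ChIP reads over 27 and 30 input reads (ratio 0.123), and Phlda2, which restrains placental growth, had 1 and 3 over 13 and 32 (ratio 0.0889). Tssc4 was higher, with 17 and 10 over 33 and 35 (ratio 0.397; log2 ratio 0.77 ± 0.34; adjusted p = 0.0770, edgeR), and it was called above input among the rows with at least 20 reads in each input (adjusted p = 0.0199). Of the 8 other rows between Ascl2 and Phlda2, among them Kcnq1 and Cdkn1c, 0 were above and 2 below input by edgeR. The shares over all rows were 18.6% and 17.0%. At an unadjusted p under 0.05, 0 were above by edgeR or DESeq2. DESeq2 gave no adjusted p to Kcnq1, Cdkn1c, Cd81, Slc22a18 and Tspan32, so its adjusted count could not test them. The median log2 ratio of the 8 rows was -0.52, and 1 was below with the block.

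Of the 7 genes outside shared clusters, 2 (28.6%) were above input by edgeR, Mest and Impact, beside 18.6% of all rows. With the block 2 were, beside 15.8%, and by DESeq2 0, beside 11.6%. Plagl1, Grb10 and Zrsr1 had no adjusted p by DESeq2. Mest, a hydrolase-family gene of mesoderm, had 7 and 15 ChIP reads over 10 and 25 input reads (ratio 0.629; adjusted p = 0.00772, edgeR), and Impact, a translational regulator high in brain, had 9 and 30 over 26 and 45 (ratio 0.549; adjusted p = 0.00262, edgeR). Both lay above the table's 75th percentile in v134, and Impact lay under it in v102, where its log2 ratio was 0.50. Plagl1, a zinc finger gene at the hub of an imprinted gene network, was the lowest of the 7, with 2 and 4 over 29 and 38 (log2 ratio -1.06 ± 0.47; adjusted p = 0.113, edgeR), and Grb10, an adaptor that restrains insulin and growth factor signalling, had 2 and 7 over 18 and 31 (-0.25 ± 0.69; adjusted p = 0.826, edgeR).

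Nnat, Mcts2 and Zrsr1 are paternally expressed genes that lie within introns of a host gene and carry the methylation mark at their own promoter. Nnat, which encodes the proteolipid neuronatin, had 16 and 23 ChIP reads over 35 and 71 input reads (log2 ratio 0.75 ± 0.14; adjusted p = 0.0612, edgeR, and 0.0165 among the rows with at least 20 reads in each input). Its host Blcap had 1 and 0 over 21 and 52, and was below input. Mcts2, a retrogene, had 7 and 7 over 26 and 39 (0.05 ± 0.18), and its host H13, a signal peptide peptidase, had 1 and 2 over 24 and 42. Zrsr1, a gene related to a splicing factor, had 10 and 3 over 18 and 28 (0.26 ± 1.25), and its host Commd1 had 4 and 1 over 25 and 42. In each of the 3 pairs and in both experiments the inner gene was higher than its host, by 3.26 ± 1.25, 1.70 ± 0.26 and 1.58 ± 0.02 on the log2 scale (n = 2 each, no test). The hosts had only 0 to 4 ChIP reads per library, and counting error at such counts is far larger than an SD of 0.02. The hosts were set beside these genes after their values were seen.

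Maternally and paternally expressed genes were then compared. The median log2 ratio was -0.15 over the 9 maternally expressed genes (-0.73 in v102 and 0.35 in v134) and 1.10 over the 20 paternally expressed genes (1.22 and 0.63). The difference was -1.25, also with Gnas counted as maternally expressed, and it was uneven between experiments at -1.95 in v102 and -0.28 in v134 (SD 1.18, n = 2). The difference was thus close to the spread between the experiments.

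In reads, the median maternally expressed gene had 3 and 9 ChIP reads over 21 and 32 input reads, and the median paternally expressed gene 13.5 and 14.5 over 22.5 and 38.5. The 2 classes overlapped throughout, with maternally expressed genes from -0.84 (Phlda2) to 1.55 (Meg3) and paternally expressed genes from -1.86 (Dlk1) to 2.17 (Mkrn3). Above input were 2 of 9 maternally expressed genes (Igf2r and Meg3) and 11 of 20 paternally expressed genes, beside 18.6% of all rows. With the experiment as a block these counts were 0 (3 at an unadjusted p under 0.05) and 11, beside 15.8%. By DESeq2 0 maternally expressed genes were above input (1 at an unadjusted p under 0.05), and only Igf2r and Tssc4 among them had an adjusted p. Gnas, whose window was placed at the maternally expressed Nesp start, is in none of these counts. It was above input, also with the block (adjusted p = 0.00632, edgeR) and by DESeq2 (adjusted p = 0.0214).

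**Figure D3:**
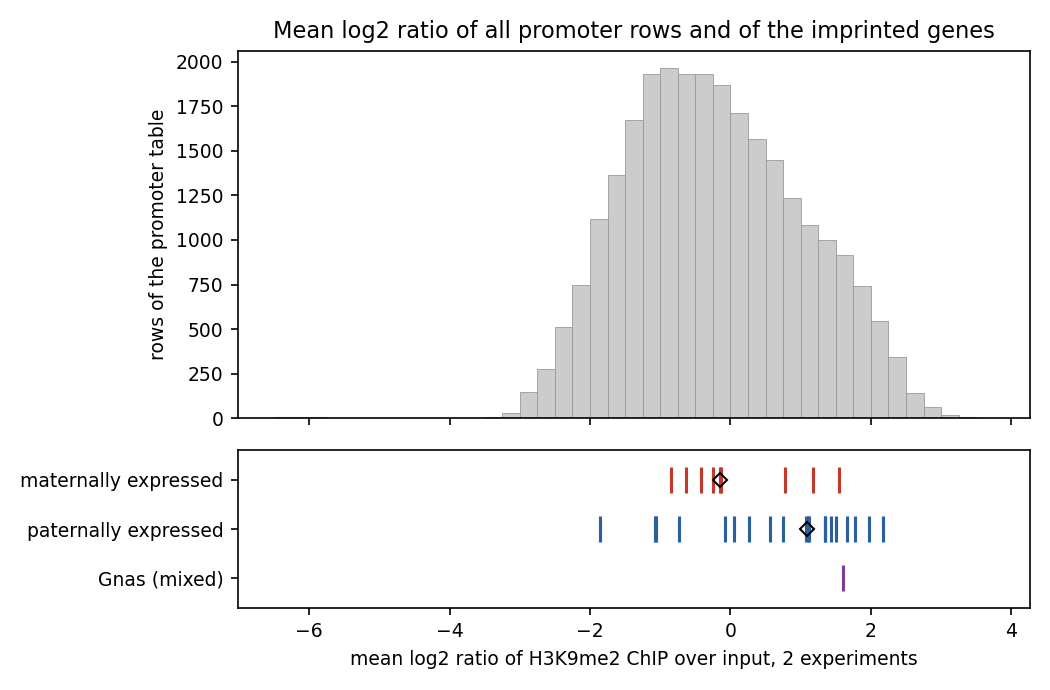
Upper panel, number of promoter rows (y axis) by mean log2 ratio of H3K9me2 ChIP over input reads (x axis, 2 experiments) for all 26354 rows. Lower panel, each imprinted gene as a tick on the same axis, with a diamond at the median of each class; the maternally expressed genes have a median of -0.15 and the paternally expressed genes 1.10, and the ranges overlap.

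Base composition differed between the classes. The ChIP over input ratio fell with GC content across the table (Spearman's rho -0.55 over 22299 placed rows, which share the 4 libraries; genes are not independent replicates): the median log2 ratio was 1.40 in windows under 40% GC and -1.26 in windows of 60% or more. The median window had 58.0% GC at maternally expressed and 52.1% at paternally expressed genes, compared with 50.9% over the table. With the table-wide trend removed by a lowess curve, the maternal minus paternal difference of the medians was 0.01, and the median percentiles were 75.7 and 75.1.

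The imprinted promoters as a group did not lose their place with that correction. Removing the GC trend left their median percentile at 77.3, and 25 of 30 lay above the median of the placed rows and 16 of 30 (53.3%) in the top quartile, which by construction holds 25.0% of the placed rows. At the 20 genes with a single annotated start place the median percentile was 82.4. Removing the trend with the number of CpG in the window instead gave median percentiles of 86.0 for all 30, 65.7 for the maternally and 87.3 for the paternally expressed genes.

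Among single genes, Mkrn3 (99.6), Magel2 (99.5), Gnas (99.3), Peg3 (99.2), Peg10 and Sgce (98.7 each) and Igf2r (98.6) had the highest percentiles with the GC trend removed. Tssc4 rose to 96.1 and Ube3a to 81.6, while Snrpn and Ndn dropped to 69.0 and 58.3. The last 2 depend on which annotated start the table used. At the alternative start of Ndn at 62348277, with 48% GC in place of 36.9%, the percentile was 93.8. For Snrpn it was 93 at 60005199, with 45.7% in place of 37.4%, but 66.5 at 60047978, with 36.7%. Snurf, which starts at about 60005199 (776 kb from Ube3a), has its own row. Its counts, 12 and 23 ChIP over 15 and 37 input reads, differ from those of Snrpn, 15 and 23 over 20 and 32. Which start the Snrpn row used was not tested. Altogether 10 of the 30 genes have more than 1 annotated start that fits their place in the table.

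**Figure D4:**
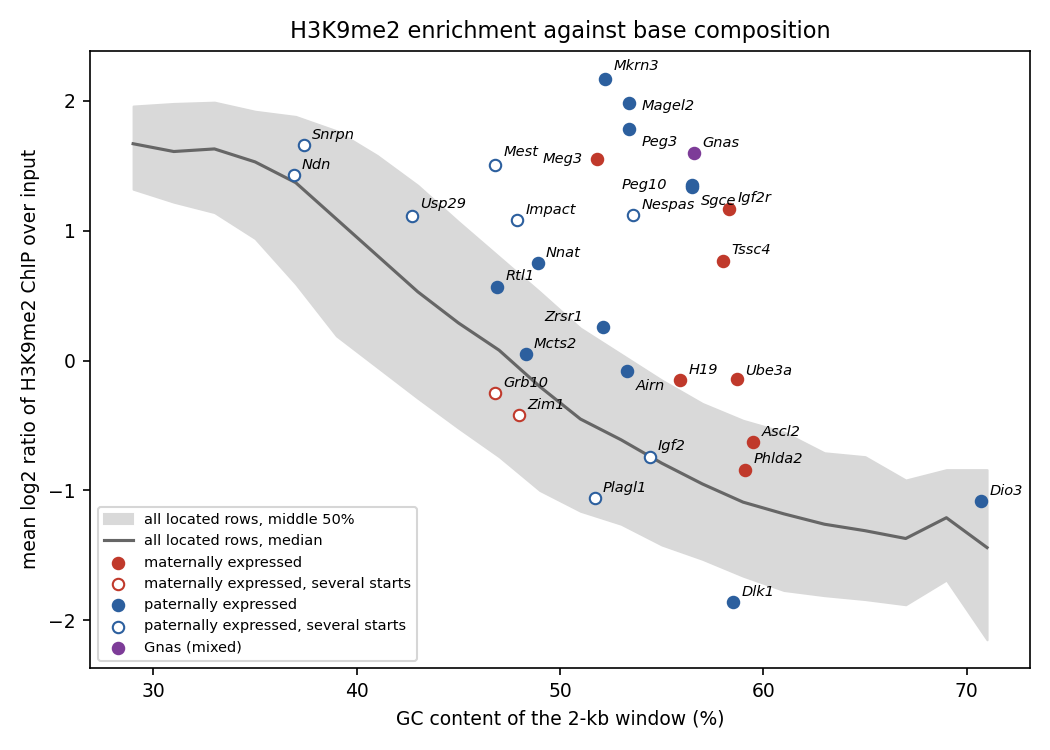
Mean log2 ratio of H3K9me2 ChIP over input reads (y axis) against the GC content of the window in percent (x axis). The grey line and band are the median and the middle 50% of the placed rows in steps of 2 percentage points, points are the imprinted genes (open where several annotated starts fit), and 25 of the 30 lie above the median of the placed rows once the trend is removed, while Dlk1 and Plagl1 lie under the line.

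Windows that hold a germline control region, where the methylation is set in the egg, were examined apart. From general knowledge the windows of Peg3, Peg10, Sgce, Nnat, Airn, Zrsr1 and Mcts2 hold one. Of these 7, 3 were above input, beside 18.6% of all rows, and Peg10 and Sgce among the 3 share their reads. Of the 18 imprinted promoters taken to hold no such region 7 (38.9%) were above input, and of 5 left uncertain 4 were. All 7 windows that hold one lay above the median of the table. Their median percentile was 76.9, and 83.3 and 95 with the GC and the CpG trend removed. TGCCGC occurred within 1 kb of the start in 6 of the 7, in 17 of all 30 imprinted genes and in 42.5% of all placed windows. Peg3 and Nnat held 6 copies and Airn 5, as did Nespas among the uncertain windows, a number (5 or more) found in 1.09% of all placed windows. Their log2 ratios were 1.78, 0.75, -0.08 and 1.12. Windows of imprinted genes with 0 copies ranged from -1.06 (Plagl1) to 1.98 (Magel2). The number depends on the inferred start: other annotated starts of Mest, Snrpn and Plagl1 hold 12, 9 and 6 copies, where the starts used hold 0. A link of the hexamer with the mark was not tested.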

How the data were processed

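Chromatin from the aortic media was immunoprecipitated for H3K9me2 in 2 experiments, each with its input. Per the labels, reads were trimmed with Trim Galore 0.4.2 and Cutadapt 1.9.1 and aligned to GRCm38 with Bowtie2 2.2.7, and the authors counted reads within 1 kb of each start site in SeqMonk. The authors deposited raw read counts for the 4 libraries and a ratio per row, which is the total of both ChIP counts divided by the total of both input counts with no scaling. Neither the annotation release nor how duplicate reads were handled is given in the sources used here.

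From the deposited counts, ChIP was compared with input over all 26354 rows by edgeR 4.0.16 (R 4.3.3; TMM, quasi-likelihood test, Benjamini-Hochberg), with no further filter on low counts, since the lowest summed input was 21 reads. DESeq2 1.42.0 was an alternative. The code was tested on simulated counts. SE is the fold change divided by the root of F. Wilson 95% intervals of the ratio, from the share of ChIP among ChIP and input reads, cover counting error alone, because PCR copies could not be recognised.

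Starts were taken from GENCODE M21 and RefSeq (GRCm38.p6), where 22329 of 26354 symbols (84.7%) matched 1 gene. Rows other than imprinted ones followed start order in 98.8% of placed cases, and that order was used to choose among annotated starts, so start positions are inferred. GC content was taken over 1 kb on each side of the start and its trend removed with lowess (fraction 0.3; 22299 rows, mitochondrial rows left out). The experiment number pairs the libraries because each ChIP has its own input in the labels, and the differences between experiments in ChIP and in input had a correlation of 0.104 across rows. Between the 2 libraries of a pair, chi-square per degree of freedom was 1.67 for ChIP and 1.28 for input. These values cannot by themselves exclude a repeat of 1 library, because PCR copies could not be recognised. That the experiments are independent rests on the labels. Parental classes, control regions and gene lists came from general knowledge. The members and lists were chosen with earlier results of these data known. Every member with a row was accounted for, with counts in full for those called, those ranked in the upper quartile in each experiment and oppositely imprinted neighbours, and of the other imprinted genes those called were to be named, up to 10 by adjusted p. Summaries used statsmodels 0.14.6 and scipy 1.17.1 under Python 3.11.15, with pandas 2.3.3, and matplotlib 3.10.9 drew the figures.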

Additional observations from a re-analysis of the deposited data

How the results depend on the processing

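The number of imprinted promoters above input was 14, and 8 by DESeq2, which left the adjusted p of 17883 rows undefined. Leaving out each library in turn gave 8 to 12, with 9 without the v102 input and 8 without the v134 input. With the experiment as a replicate block it was 12, and Igf2r, Meg3 and Dlk1 were the calls that the block removed. The 1 promoter below input became 0 with the replicate block, by DESeq2 and with at least 20 input reads in each experiment, and 0 to 2 with each library left out. That promoter, Dlk1, had 10 input reads in v102, so the filter of at least 20 input reads removed it before the fit. DESeq2 gave Dlk1 no adjusted p, and by DESeq2 0 members were below input at an unadjusted p under 0.05. The 0 with the filter and the adjusted 0 by DESeq2 therefore could not test the Dlk1 call. No fold change of a called promoter reversed. Scaling by library totals kept both counts and moved the median log2 fold change of all rows from -0.35 to -0.50.

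The median log2 ratio of 0.76 was 1.25 among the 20 members with at least 20 input reads in each experiment (-0.24 over all such rows). It was 0.58 and 1.06 without v102 and without v134. With 5 reads added to each count in place of 1, the members' median was 0.94 and that over all rows 0.34, nearer to each other than 0.76 and -0.31. The maternal minus paternal difference of -1.25 shrank to 0.01 with the GC trend removed, and ranged from -1.95 to -0.28 with 1 experiment left out. With 5 reads added the difference was -0.81. It was -0.33 without Ube3a, Grb10, Ascl2 and Phlda2, whose imprinting is limited to some tissues. Chosen after seeing the data, it was -0.70 with the CpG trend removed, -0.81 at genes with 1 start place and -0.86 without the Snrpn cluster, and the members' median was 1.02, 0.66 and 0.57. The cause of these changes was not tested. Low ChIP counts limit single promoters: a median of 9.5 and 10.5 reads leaves wide intervals.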

Other observations

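A second list of 45 imprinted or candidate imprinted genes outside the 33 gave other values. Of these, 8 were above input and 8 below by edgeR, beside 18.6% and 17.0% of all rows, and their median log2 ratio was -0.40, compared with -0.31 over the table. With the GC trend removed their median percentile was 63.6, and 16 of the 45 (35.6%) lay in the top quartile, which holds 25.0% of the placed rows. With the experiment as a block 5 were above and 4 below, beside 15.8% and 8.30% of all rows. The highest were Peg12, in the Snrpn cluster (36 and 27 ChIP reads over 27 and 41 input reads; adjusted p = 3.30e-08), Slc38a4, an amino acid transporter that is paternally expressed (12 and 20 over 14 and 29; adjusted p = 2.34e-04), Tfpi2, a protease inhibitor in the Peg10 region and maternally expressed in placenta (8 and 23 over 13 and 29; adjusted p = 3.42e-04), and Sfmbt2, a Polycomb-related gene with paternal expression in placenta (13 and 27 over 17 and 57; adjusted p = 0.00162, edgeR for all). Ddc, next to Grb10, was above input as well (10 and 15 over 16 and 34; adjusted p = 0.0189, edgeR). Among those below input were Blcap, Asb4, Bcl2l1, Cobl and Osbpl5, the last at the edge of the Kcnq1 cluster with 0 ChIP reads in both libraries over 25 and 34 input reads (adjusted p = 4.79e-04, edgeR). Cobl was lost with the block (adjusted p = 0.0596, edgeR).

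Of 15 genes that set or maintain imprints, 2 were above input (13.3%) and 4 below (26.7%), beside 18.6% and 17.0% of all rows, and the block left both counts as they were. Their median log2 ratio was -0.71. Zfp445, a zinc finger gene that acts with Zfp57 in imprint maintenance, had 20 and 26 ChIP reads over 25 and 42 input reads (adjusted p = 6.48e-05, edgeR), and Zfp42, a gene of pluripotent cells, had 13 and 18 over 10 and 35 (adjusted p = 4.88e-04, edgeR). Trim28, the corepressor recruited by ZFP57, had 0 and 1 over 24 and 44 and was below input (adjusted p = 0.00159, edgeR), as were Smchd1, Arid4a and Arid4b. Zfp57 itself had 8 and 11 over 23 and 54 and did not pass the test (adjusted p = 0.660, edgeR).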
